A study of Homo sapiens with 12 samples.

Results

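The genes described here were the rows of both deposited count matrices whose symbol named a histone gene of the H1, H2A, H2B, H3 or H4 families (H1-, H2AC, H2BC, H3C or H4C followed by a number). Described here are 69 such genes among 60708 rows, and 50 of them had a mean count of at least 10 over the 12 libraries: 4 of 9 H1, 13 of 16 H2A, 14 of 17 H2B, 9 of 13 H3 and 10 of 14 H4 genes. The members were chosen by their symbol and selected on their mean count over all 12 libraries, treated and control alike. Just inside the minimum were H3C15 with a mean count of 10.6 and H2AC19 with 10.9, and just outside it were H2AC17 with 7.42 and H1-1 with 6.

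The libraries came from HCT116, an established human colon cancer cell line, labelled as wild type (WT). Cells were treated for 24 h with oligomycin A (OA), which blocks the ATP synthase of mitochondria, or with tunicamycin (TN), which blocks N-linked glycosylation and so stresses the endoplasmic reticulum. The labels give a dose of 5 µg/ml for both agents, whereas the study's methods give a different dose for OA, so the OA dose is uncertain. Each agent had its own DMSO-treated control (OActrl and TNctrl), and each of the 4 groups had 3 libraries labelled as biological replicates. All groups derive from 1 cell line, so the replicates do not sample different genetic backgrounds.

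Replication-dependent histone genes supply the core histones H2A, H2B, H3 and H4, which form the nucleosome, and the linker histone H1, which binds the DNA between nucleosomes. They are transcribed mainly in S phase, when newly copied DNA must be packaged. Their mRNAs usually carry no poly(A) tail and end after a short stem-loop that is bound by the stem-loop binding protein SLBP, and they are degraded when DNA synthesis stops. In bulk RNA, fewer cells in S phase and less histone mRNA in each such cell cannot be told apart.

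A histone stem-loop within 100 bases after the stop codon was found on the RNA strand of 49 of the 50 genes. On either strand it was found in 72 of 20033 protein-coding genes (0.359%). The 72 include 66 of the 69 histone genes chosen by symbol. H1-10 had no stem-loop there. It is known as a linker histone made outside S phase, so for this gene the name replication-dependent does not hold. It is counted among the 50 and among the H1 genes, but not among the 49 stem-loop genes. The stem-loop began between 23 and 68 bases after the stop codon, with a median of 37. The following RNA-strand sequences (hg38, written as DNA, 5′ to 3′) show 1 gene of each type and the less common forms, with the 16 bases of the stem-loop in capitals:
H1-4: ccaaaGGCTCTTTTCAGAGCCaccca
H2AC11: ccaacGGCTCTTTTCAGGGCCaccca
H2AC15: aaaaaGGTTCTTTTCAGAGCCaccta
H2AC20: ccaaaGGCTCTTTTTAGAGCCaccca
H2BC4: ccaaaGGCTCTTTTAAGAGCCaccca
H2BC13: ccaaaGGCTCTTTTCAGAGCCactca
H3C12: ccaaaGGCTCTTTTCAGAGCCactta
H3C6: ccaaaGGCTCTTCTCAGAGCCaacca
H4C4: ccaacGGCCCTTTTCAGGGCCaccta
H4C12: caaaaGGCCCTTTTTAGGGCCcccac

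These lie on chromosomes 6 and 1: H1-4 at chr6:26157090-26157115, H2AC11 at chr6:27133510-27133535, H2AC15 at chr6:27837880-27837905, H2AC20 at chr1:149887386-149887411, H2BC4 at chr6:26123467-26123492, H2BC13 at chr6:27807479-27807504, H3C12 at chr6:27890315-27890340, H3C6 at chr6:26225591-26225616, H4C4 at chr6:26188710-26188735 and H4C12 at chr6:27831173-27831198. The form shown for H1-4, H2BC13 and H3C12 was the most common one and was carried by 28 of the 49 genes, among them 8 of 9 H3 genes. The form shown for H2BC4 was carried by 7 genes, 5 of them H2B. All 10 H4 genes had a stem closed by GGCCC and GGGCC, in 7 genes with the loop of H4C4 and in 3 with that of H4C12. H2AC11, H2AC15, H2AC20 and H3C6 each had a form found in no other of the 49 genes.

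RefSeq promoters (GRCh38.p14, 250 bases before to 50 after the start) matched 46 of the 50 genes, and motifs were searched on both strands. The TATA box letters TATAAA were in 34 of the 46 (73.9%) against 11.5% of all 35116 promoters of this length. CCAAT was in all 34 H2A, H2B and H3 promoters, in 3 of 4 H1 and in 0 of 8 H4 promoters, against 34.6% of all promoters. The octamer ATTTGCAT was in 8 of 12 H2A and 11 of 14 H2B promoters and in none of the H1, H3 or H4 promoters, against 1.77% of all promoters. AAACACA, known as an H1 box, was in 3 of 4 H1, 2 of 8 H3 and 1 of 12 H2A promoters and in no H2B or H4 promoter, against 5.64% of all. The 200 bases before the start of an H1, an H2B and an H4 gene are printed to show these differences, with matches to the 4 motifs on either strand in capitals:
H1-4: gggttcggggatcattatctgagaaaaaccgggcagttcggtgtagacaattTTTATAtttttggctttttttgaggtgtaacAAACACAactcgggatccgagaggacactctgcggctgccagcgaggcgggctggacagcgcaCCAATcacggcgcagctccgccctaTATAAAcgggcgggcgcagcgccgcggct
H2BC14: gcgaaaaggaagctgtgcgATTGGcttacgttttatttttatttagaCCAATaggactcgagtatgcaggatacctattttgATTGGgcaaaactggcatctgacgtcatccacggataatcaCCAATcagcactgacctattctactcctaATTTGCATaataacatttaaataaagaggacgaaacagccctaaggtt
H4C4: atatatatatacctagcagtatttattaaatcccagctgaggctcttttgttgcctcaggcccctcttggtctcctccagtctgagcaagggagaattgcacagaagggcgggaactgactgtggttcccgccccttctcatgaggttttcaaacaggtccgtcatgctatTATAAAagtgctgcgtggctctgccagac

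The regions (hg38) are those of H1-4 (chr6:26156129-26156328, plus strand), H2BC14 (chr6:27814822-27815021, plus strand) and H4C4 (chr6:26189113-26189312, minus strand). A match is a run of letters, and binding of a factor there was not measured.

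Library totals ranged from 9884124 to 24983573 counts. The epithelial markers EPCAM, KRT8, KRT18, KRT19 and CDH1 passed the filter on low counts, whereas CDH17, VIL1 and LGALS4 did not, and the 8 summed to between 4075 and 8485 CPM (counts per 1000000 of the scaled library) in each library. Summed leukocyte markers did not exceed 0.737 CPM. The 4 fibroblast markers summed to 1.42 to 2.44 CPM in OActrl and 4.67 to 12.9 CPM in OA, and the 3 endothelial markers to 0.157 to 0.395 CPM and 0.499 to 1.45 CPM, in both cases with no overlap, while the TN and TNctrl libraries overlapped (1.99 to 4.60 CPM for fibroblast and 0.184 to 0.986 CPM for endothelial markers over the 6 libraries). RN7SL1, the RNA of the signal recognition particle, took 6.02% to 8.11% of the counts of the DMSO libraries and 8.40% to 17.9% of those of the treated libraries. The part of these in the results was not tested.

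TN replicate 1 stood apart from the other TN libraries. Across 46 stem-loop histone genes tested in both comparisons, the median difference from the own DMSO mean, in log2(CPM + 1), was -0.34 in TN replicate 1 but -2.18 and -2.02 in TN replicates 2 and 3. In OA replicate 1 it was -2.11, and in OA replicates 2 and 3 it was -1.10 and -1.11. OA replicate 2 had the largest RN7SL1 share (17.9%), and TN replicate 1 had the next (13.3%).

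**Figure D1:**
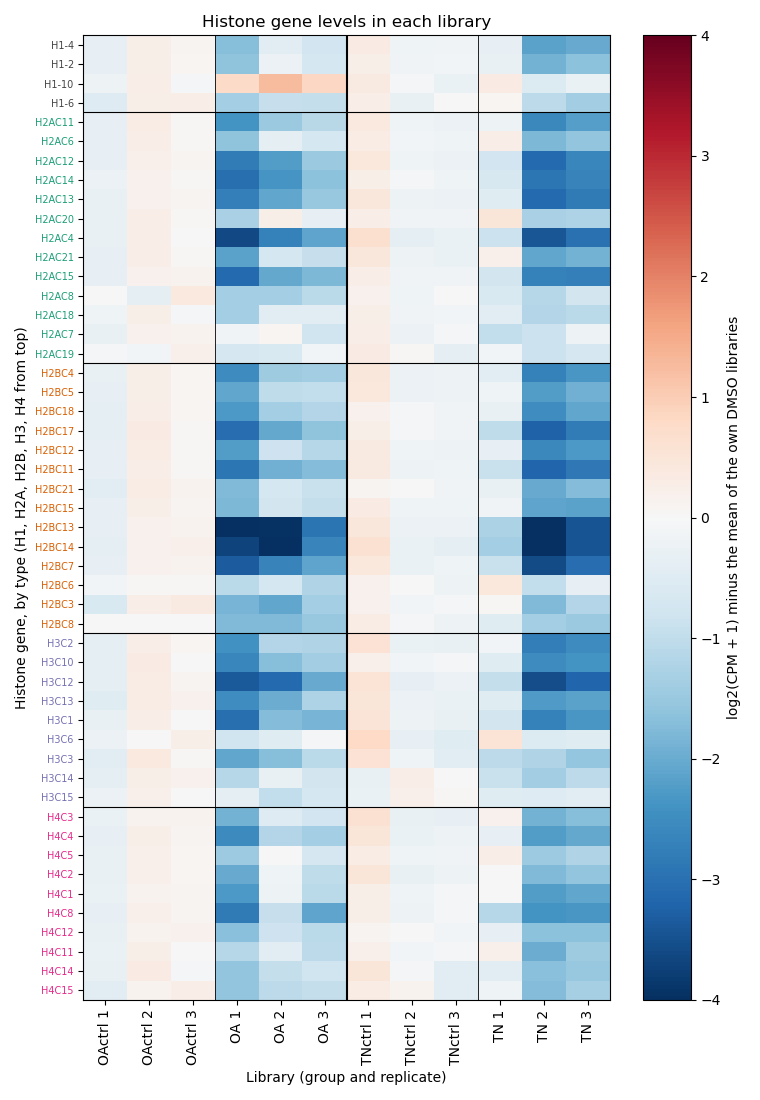
Level of each of the 50 histone genes (rows, by type and falling mean level) in each of the 12 libraries (columns), as log2(CPM + 1) minus the mean of the 3 DMSO libraries of the same comparison. Colour runs from -4 (dark blue) to 4 (dark red), with lower differences in the darkest blue. H1-10 is higher in all 3 OA libraries, and TN 1 is closer to its controls than TN 2 and TN 3.

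In DMSO-treated cells most histone mRNA came from part of the genes. Of the 69, 8 had no count in any library: H1-5, H1-7, H1-8, H2BC9, H3C4, H3C7, H4C6 and H4C7. H1-8, the oocyte linker histone, and H1-7, a testis linker histone, are known from germ cells. H3C4 overlaps the gene model ENSG00000282988, with which it shares 96.5% of the 50-base stretches of its transcript, so reads from it may have been left uncounted. H1-5 and H1-3 are known as linker histones of dividing body cells. On chromosome 6, which holds 55 of the 69 genes, 7 neighbours from H1-3 to H2BC10 (chr6:26234212-26273412) all stayed under the minimum, with at most 9 counts in any library. The next histone gene on one side, H3C6, had 24.1, 28.5 and 33.6 CPM in OActrl, and on the other, H4C8, had 129.8, 188 and 178 CPM. A second run of 4 neighbours from H2AC16 to H4C13 (chr6:27865317-27873534) reached at most 17 counts and lay between H2BC15 and H3C12, which were at 273, 405 and 368 and 452, 721 and 634 CPM in OActrl. In both runs no gene shared more than 3.23% of its 50-base stretches with another transcript. The first 3 histone genes of chromosome 6, H2AC1, H2BC1 and H1-1, also stayed under the minimum, with at most 30 counts in any library.

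**Figure D2:**
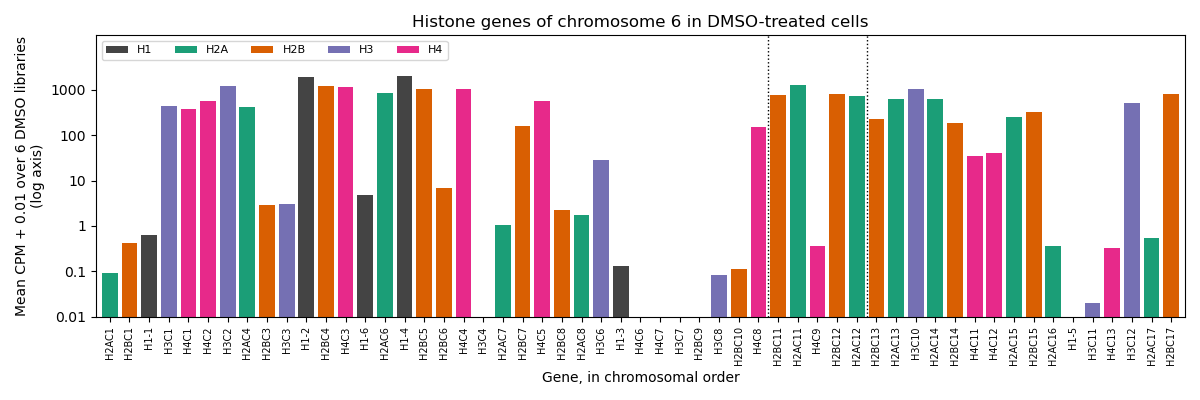
Mean level over the 6 DMSO libraries (CPM + 0.01, log axis) of the 55 histone genes of chromosome 6, in chromosomal order and coloured by type, with dotted lines between the 3 groups of neighbours. Runs of low or empty bars, from H1-3 to H2BC10 and from H2AC16 to H4C13, lie between neighbours with higher levels. H2AC1, H2BC1 and H1-1, at the start, are low as well.

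Per length of transcript, the highest mean levels over the 6 DMSO libraries were those of H4C3 (2779.7 CPM per kilobase), H2BC4 (2659), H1-2 (2643), H1-4 (2587), H4C4 (2521) and H2AC11 (2519.9). The 49 stem-loop genes together took 2.90% ± 0.48 (SD, n = 3) of all counts in OActrl and 2.21% ± 0.41 (SD, n = 3) in TNctrl. The labels name a total RNA kit, while the study's methods speak of mRNA sequencing.

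The first comparison asks how histone mRNAs differ between cells with a blocked mitochondrial ATP synthase and their DMSO controls. With OA, 20 of the 50 genes fell and 0 rose (edgeR's quasi-likelihood test, Benjamini-Hochberg adjusted p under 0.05), where 1.72% of the 14681 genes tested fell and 2.76% rose. The median log2 fold change of the 50 was -1.53, against -0.02 over all genes tested. By type the median was -0.83 in H1 (-0.89 in the 3 with a stem-loop), -1.58 in H2A, -1.92 in H2B, -1.85 in H3 and -1.09 in H4, and the falls were in 7 of 13 H2A, 9 of 14 H2B and 4 of 9 H3 genes, with 0 of 4 H1 and 0 of 10 H4 genes. At an unadjusted p under 0.05 stood 3 H1 and 7 H4 genes, where 23.3% of all genes tested did. DESeq2 called 1 H1 gene lower, 1 H1 gene higher and 5 H4 genes lower, where it called 4.31% of genes lower and 6.04% higher. In 40 genes all 3 OA libraries lay below all 3 OActrl libraries, as did 15.5% of all genes tested, and those of H1-10 lay above them, as did 16.3%. Of the 50, 10 low genes had an OA mean count under 10 and met the minimum through the other groups, so they had to be lower with OA. Of the 20 calls, 3 were among these low genes, and the OA medians include them.

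Counted in library sums, the 49 stem-loop genes were at 39.0% of control with OA. The summed level was 26987 ± 5252 CPM (SD, n = 3) in OActrl and 10520 ± 4169 CPM (SD, n = 3) in OA. H3 genes were at 28.0% of control, H2B genes at 32.1%, H2A genes at 36.2%, H4 genes at 48.0% and H1 genes at 56.4%. For each type the OA libraries lay below the OActrl libraries. For H1 the margin was narrow, with 3471 CPM in OA replicate 2 and 3480 CPM in OActrl replicate 1.

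**Figure D3:**
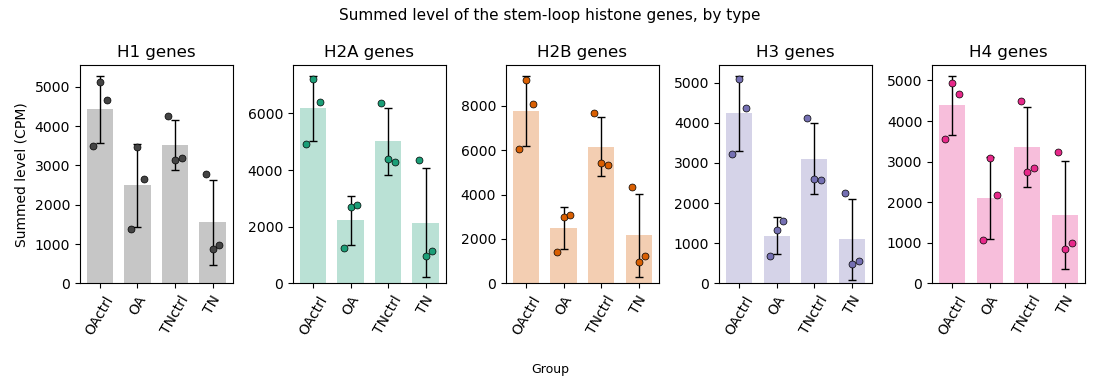
Summed level (CPM) of the 49 stem-loop histone genes by type in OActrl, OA, TNctrl and TN, with a point for each of the 3 libraries, in replicate order, and bars for the mean with 1 SD. OA points lie below the OActrl points in every panel, narrowly so for H1, and TN 1 lies above the other 2 TN libraries.

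H2B genes had the lowest median log2 fold change, while by summed level H3 genes were lowest against their controls. The medians include the 10 low genes, H2BC3 and H2BC8 among them, whose lower OA level was fixed by the selection. No order of the types is therefore read from the medians. H2BC13 was at 194, 276 and 269.7 CPM in the 3 OActrl libraries and at 13.1, 14.9 and 31.6 CPM in the 3 OA libraries (log2 fold change -3.64 ± 0.40 SE, adjusted p = 0.0116). H2BC14 had 157, 231 and 233 CPM in OActrl and 14.8, 9.28 and 32.1 CPM in OA (log2 fold change -3.47 ± 0.48 SE, adjusted p = 0.0168). Neither gene had an OA library near its controls. H2BC7 went from 140.5, 199 and 193 to 16.7, 26.9 and 39.6 CPM (log2 fold change -2.68 ± 0.36 SE, adjusted p = 0.0157), and H2BC11 from 675, 1028 and 884 to 114, 223 and 256 CPM (log2 fold change -2.13 ± 0.35 SE, adjusted p = 0.0245). The most abundant H2B gene, H2BC4, was at 1106, 1589 and 1417 CPM in OActrl and at 235, 508 and 515 CPM in OA (log2 fold change -1.71 ± 0.34 SE, adjusted p = 0.0366). H2BC18 fell to a similar extent (log2 fold change -1.55 ± 0.34 SE, adjusted p = 0.0452), though 74.0% of its 50-base stretches recur in other transcripts. H2BC5, the next most abundant, differed by -1.30 and did not pass, at an adjusted p of 0.0665. Of the weakly transcribed H2B genes, H2BC8 had 47, 61 and 47 counts in OActrl and 0, 0 and 2 counts in OA, which is 2.49% of control with a 95% counting interval from 0.299% to 9.14%. H2BC3, with 33, 101 and 86 counts in OActrl, had 2, 0 and 6 in OA. Both are among the low genes that met the minimum through the other groups, so their lower OA level was fixed by the selection and nothing is read from their tests.

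Among the H2A genes, H2AC4 was at 370.4, 549 and 462 CPM in OActrl and at 36.7, 69.5 and 104 CPM in OA (log2 fold change -2.72 ± 0.40 SE, adjusted p = 0.0201). H2AC15 fell from 221, 317 and 307 to 31.1, 66.3 and 79.6 CPM (log2 fold change -2.26 ± 0.37 SE, adjusted p = 0.0250). H2AC12, H2AC13 and H2AC14 fell by 2.09, 2.05 and 2.25 on the log2 scale, and H2AC13 and H2AC14 share over 63% of their 50-base stretches, so reads may have been split between them. H2AC11, the most abundant H2A gene, had 1083, 1673 and 1406 CPM in OActrl and 258, 492 and 638 CPM in OA (log2 fold change -1.58 ± 0.36 SE, adjusted p = 0.0477). In contrast, H2AC20 was at 490.3, 728 and 624 CPM in OActrl and at 245, 713 and 480.0 CPM in OA, so that the groups overlapped (log2 fold change -0.36 ± 0.38 SE, adjusted p = 0.599), and its log2 fold change ran from -0.78 without OA replicate 2 to -0.058 without OA replicate 1. H2AC6 was between these, with a value of -0.84 and an adjusted p of 0.191. H2AC8 had 29, 24 and 46 counts in OActrl and 0, 0 and 2 in OA, which is 3.89% of control with a 95% counting interval from 0.465% to 14.4%. This low gene met the minimum in the same way.

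H3 genes that passed were H3C12, H3C1, H3C10 and H3C13. H3C12 was at 452, 721 and 634 CPM in OActrl and at 56.9, 67.3 and 144 CPM in OA (log2 fold change -2.75 ± 0.41 SE, adjusted p = 0.0206). Its annotated span overlaps H2AC17 on the same strand. H3C1 fell from 393, 574 and 485 to 57.96, 143 and 130.0 CPM (log2 fold change -2.13 ± 0.37 SE, adjusted p = 0.0270). The most abundant gene, H3C2, was at 1078, 1653 and 1462 CPM in OActrl and at 257, 609 and 597 CPM in OA, with no overlap, and missed the threshold (log2 fold change -1.52 ± 0.36 SE, adjusted p = 0.0563). H3C6 differed least among the H3 genes (log2 fold change -0.44 ± 0.29 SE, adjusted p = 0.395) with overlapping groups.

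None of the 10 H4 genes passed with OA, against 6 with a GC offset and 10 with the replicate block, in which 10.6% and 15.0% of all genes fell. In both of these fits 3 of the 4 H1 genes were called lower and 1 higher, so the types are not told apart by their calls. H4C3, the most abundant, was at 1069.6, 1413 and 1403 CPM in OActrl and at 347, 892 and 757 CPM in OA (log2 fold change -0.96 ± 0.36 SE, adjusted p = 0.154). H4C4 was at 903, 1322 and 1209.7 and 193, 504 and 439 CPM (log2 fold change -1.60 ± 0.37 SE, adjusted p = 0.0525). In H4C5 the groups overlapped, with 516, 723 and 668 CPM in OActrl and 230.0, 625 and 391 CPM in OA (log2 fold change -0.61 ± 0.36 SE, adjusted p = 0.344). For these 3 genes OA replicate 2 had the highest OA level. The log2 fold change of H4C5 ran from -1.05 to -0.34 with 1 library left out.

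The linker histones did not all lie on one side of their controls. H1-4 was at 1799, 2621 and 2413 CPM in OActrl and at 685, 1672 and 1335 CPM in OA (log2 fold change -0.89 ± 0.35 SE, adjusted p = 0.175), and H1-2 at 1678, 2502 and 2254 and 688, 1797 and 1307 CPM (log2 fold change -0.76 ± 0.36 SE, adjusted p = 0.247). H1-6, a testis-type linker histone, was at 3.36, 6.32 and 6.51 and 1.40, 2.29 and 2.18 CPM. None of H1-4, H1-2 and H1-6 passed, and the groups overlapped for H1-2. With 1 library left out, the log2 fold change of H1-2 ran from -1.13 to -0.48. H1-10, which has no stem-loop, was at 30.4, 42.5 and 34.2 CPM in OActrl and at 60.5, 86.1 and 62.9 CPM in OA (log2 fold change 0.97 ± 0.26 SE, adjusted p = 0.0748). All 3 OA libraries were above all 3 controls, and the gene did not pass.

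The number of OA calls moved with the libraries used, over all genes as well as over the members. With any 1 of the 3 OActrl libraries left out, 0 members passed in edgeR, as 0% of all genes were called lower and 0.0200% to 0.0335% higher (at an unadjusted p under 0.05, 39 without replicate 1, 35 without replicate 2 and 36 without replicate 3, where 15.7%, 19.3% and 14.4% of all genes did), although the median stayed between -1.29 and -1.76 in all leave-one-out fits. Without OA replicates 1, 2 and 3 in turn it was 20, 29 and 9 members, where 7.57%, 5.53% and 0.587% of all genes were called, and DESeq2 on all libraries gave 35, of which 34 were lower and 1 was higher, where DESeq2 called 4.31% of all genes lower and 6.04% higher.

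The second comparison asks the same for cells with blocked N-glycosylation. With TN, the histone genes lay further below their controls in TN replicates 2 and 3 than in TN replicate 1. Of 47 genes tested, 1 fell, H4C8, and 0 rose, where 3.34% of the 14432 genes tested fell and 3.65% rose. The median log2 fold change of the 47 was -1.39, against -0.03 over all genes tested, and it was -1.004 in H1 (-1.11 in the 3 with a stem-loop), -1.66 in H2A, -1.45 in H2B, -1.60 in H3 and -1.08 in H4. At an unadjusted p under 0.05 stood 29 genes, where 24.3% of all genes tested did, and 29 genes had all 3 TN libraries below all 3 controls, as did 16.8% of all genes tested. H2AC7, H2AC19 and H3C15 did not pass the filter on low counts.

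The TN and TNctrl replicate numbers were taken as pairs from correlations in these same data, not from a statement in the labels. The correlations do not tell replicates 2 and 3 from each other. As an alternative, with the replicate number as a block, 37 of 47 genes fell and 0 rose (edgeR, adjusted p under 0.05). In that fit 15.3% of all genes tested fell and 11.8% rose. TN replicate 1 decided the unpaired count. Without it 42 of 50 genes fell and 0 rose, where 8.54% of 14950 genes fell and 7.26% rose, and the median was -2.31. With only the libraries numbered 2 and 3 it was 43 of 48, where 22.6% of all genes fell and 20.3% rose, an alternative chosen after the data were seen. Without any other single TN or TNctrl library 0 passed in edgeR, where 0.484% to 1.46% of all genes were called lower, with 13 to 29 genes at an unadjusted p under 0.05, where 16.8% to 22.2% of all genes were, while DESeq2 on all 6 libraries gave 25 lower, where it called 5.31% of all genes lower and 5.32% higher.

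H4C8 was at 155, 114 and 126 CPM in TNctrl and at 58.9, 23.8 and 25.1 CPM in TN (log2 fold change -1.87 ± 0.39 SE, adjusted p = 0.0322). Each TN library lay below each control. In the blocked fit its adjusted p was 6.4e-04. Its annotated span also overlaps another gene model, ENSG00000289447, so some of its reads may not be its own. H2BC14 was at 236, 126 and 119.6 CPM in TNctrl and at 58.6, 6.92 and 13.1 CPM in TN (log2 fold change -2.62 ± 0.77 SE, adjusted p = 0.0854, and adjusted p = 9.9e-04 with the block). H2BC4 had 1432, 891 and 903 CPM in TNctrl and 766, 159.8 and 209.5 CPM in TN (log2 fold change -1.51 ± 0.59 SE, adjusted p = 0.169, and adjusted p = 0.00260 with the block). TN replicate 1 lay between the controls and the other TN libraries in both genes. Without that library the log2 fold changes were -3.97 in H2BC14 and -2.51 in H2BC4.

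H1-4 was at 2221, 1570.1 and 1591 CPM in TNctrl and at 1404, 402 and 440.2 CPM in TN (log2 fold change -1.26 ± 0.49 SE, adjusted p = 0.169, and adjusted p = 0.00357 with the block). H2AC11 had 1419, 949.6 and 924 CPM in TNctrl and 931, 178 and 230.5 CPM in TN (log2 fold change -1.30 ± 0.61 SE, adjusted p = 0.246, and adjusted p = 0.00639 with the block). The 2 groups overlapped for H2AC11. H3C2 was at 1380.1, 774 and 751 and 864, 136 and 162 CPM (log2 fold change -1.32 ± 0.71 SE, adjusted p = 0.303, and adjusted p = 0.00550 with the block). H4C3 was at 1393, 743 and 732 and 1027, 246 and 279 CPM (log2 fold change -0.89 ± 0.58 SE, adjusted p = 0.402, and adjusted p = 0.00707 with the block). In H3C2 and H4C3 TN replicate 1 was above 2 of the 3 controls, so these groups overlapped too. Without TN replicate 1 the log2 fold changes were -2.05 in H1-4, -2.39 in H2AC11, -2.67 in H3C2 and -1.83 in H4C3. The highest values with 1 library left out were -0.96, -0.92, -0.92 and -0.55 in turn. H1-10 differed by -0.14 on the log2 scale, with an adjusted p of 0.823.

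The genes with the largest TN differences were H3C14, H2BC14 and H3C3. H3C14 had 21, 38 and 22 counts in TNctrl and 4, 0 and 3 in TN, but 99.2% of its 50-base stretches recur in other transcripts, H3C15 among them. H3C3 had 75, 35 and 21 counts in TNctrl and 6, 5 and 2 in TN. Both are among 8 low genes that had a TN mean count under 10 and met the minimum through the other groups, so they had to be lower with TN. Of these 8, 5 were tested and 0 passed, and 3 of the 37 calls with the block and 4 of the 42 without TN replicate 1 were among the 8. The TN medians include the 5 tested.

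Summed over the 49 stem-loop genes, TN libraries were at 40.8% of control (21150 ± 4993 CPM in TNctrl and 8637 ± 7196 CPM in TN, SD, n = 3). Without TN replicate 1 they were at 21.2% of control. The H2A and H4 sums overlapped between the groups, and those of H1, H2B and H3 did not.

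A question was whether the members changed differently with OA and with TN. The test of the difference called 0 of 50 members in either direction (edgeR's quasi-likelihood interaction test, where 0.0% of the 15429 genes tested were called), and 3 members had an unadjusted p under 0.05, as did 2.26% of all genes tested. They were named after their values were seen. H1-10 differed by 1.05 ± 0.38 SE (unadjusted p = 0.0164, edgeR fit of all genes), higher with OA, and H2AC8 and H2BC8 were lower with OA. The latter 2 are among the low genes that met the minimum through the other groups, so nothing is read from their direction or from the count of 3. Across the 46 stem-loop genes tested in both, Spearman's rho of the log2 fold changes was 0.82 and Pearson's r was 0.67. The comparisons have separate controls, but the genes share sequence and level in both, so this is a description over genes that are not independent. The 46 include low genes that met the minimum through the other groups, such as H2BC8 and H3C14. Their lower values were fixed by the selection, and the correlation was not run without them, so no agreement is read from it.

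**Figure D4:**
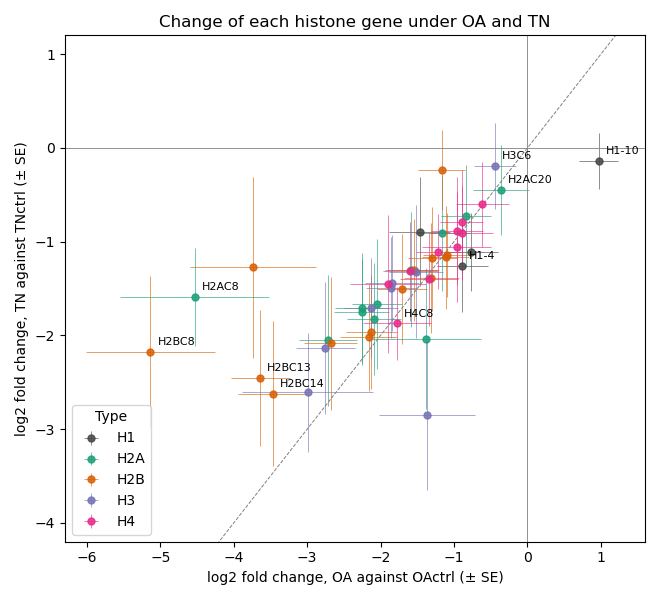
Log2 fold change with TN (y axis) against that with OA (x axis) for the 47 histone genes tested in both, each with 1 SE, coloured by type, with a dashed line of equal change. H2BC13 and H2BC14 lie at the lower left, and H1-10 lies at the right, away from the rest.

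The make-up of the histone mRNA was compared as the share of each type. Of the counts on the 49 stem-loop genes, H1 genes took 16.4% ± 0.15 (SD, n = 3) in OActrl and 23.7% ± 2.0 (SD, n = 3) in OA, and H4 genes 16.3% ± 0.60 and 19.6% ± 2.7. H2B genes took 28.7% ± 0.33 in OActrl and 23.9% ± 1.7 in OA, and H3 genes 15.6% ± 0.48 and 11.4% ± 1.5. With TN the H4 share was 20.03% ± 0.86 against 15.8% ± 0.83 in TNctrl, and the H2B share 24.6% ± 1.2 against 29.2% ± 0.59. In these 6 comparisons the groups did not overlap, and the exact two-sided permutation test over libraries gave p = 0.1, the smallest that 3 against 3 libraries can give, and 0.125 after Benjamini-Hochberg adjustment. Of 10 shares compared in all, those of H1 and H2A with TN overlapped. The H1 share was 16.5%, 21.1% and 20.2% in TN replicates 1, 2 and 3 and 15.8%, 17.1% and 17.4% in the same-numbered controls, higher in all 3 pairs. A share within a library does not depend on the scaling of libraries.

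**Figure D5:**
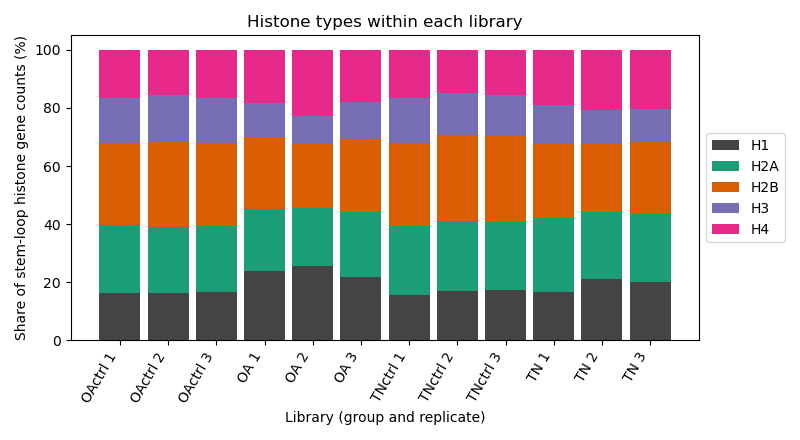
Share of the counts on the 49 stem-loop histone genes (y axis, %) taken by the genes of each type, in each of the 12 libraries (x axis). H1 genes take more of each OA library than of any OActrl library, and H2B and H3 genes take less.

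H2A and H2B genes often lie in pairs with adjoining starts. There were 11 such pairs with 169 to 250 bases between the gene models, 9 of them with both genes reported. The 2 genes of a pair did not have equal values. In 7 of the 9 pairs H2B had the lower log2 fold change with OA, and in 6 of 8 tested pairs with TN. Both counts include H2AC8 and H2BC8, which are low genes that met the minimum through the other groups. The OA count also includes H2BC7 with H2AC7, another such low gene, whose span overlaps another gene model. Nothing is read from the order within these pairs. H2BC13 and H2AC13 were at -3.64 and -2.05 with OA, and H2BC14 and H2AC14 at -3.47 and -2.25. The reverse held for H2BC15 and H2AC15, at -1.11 and -2.26, and for H2BC12 and H2AC12, at -1.31 and -2.09. Differences within pairs were not tested. By place, the median with OA was -2.16 in 11 reported genes at the last chromosome 6 group (8 of them called), -1.84 in 4 genes of the middle group (3 called), -1.47 in 23 genes of the first group (7 called) and -1.37 in 11 genes of chromosome 1 (2 called), where 1.72% of all genes tested fell. All 10 low genes, whose lower OA level was fixed by the selection, lie in the first group or on chromosome 1. The medians and calls of these places include them. Differences between places were not tested.

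The counts for the lists that follow stand beside 1.72% of all genes tested that fell and 2.76% that rose with OA, 3.34% and 3.65% with TN, and 15.3% and 11.8% in the blocked TN fit. At an unadjusted p under 0.05 were 23.3% of all genes with OA and 24.3% with TN. DESeq2 called 4.31% of all genes lower and 6.04% higher with OA, and 5.31% and 5.32% with TN. 6 members from a fixed list (H2BC4, H2BC5, H2BC12, H2BC21, H2AC6 and H1-2) are known to also give polyadenylated mRNA. H2BC4 was the 1 called with OA, and none passed with TN in edgeR (4 at an unadjusted p under 0.05, 4 by DESeq2, and 6 of 6 in the blocked fit). Their medians were -1.19 and -1.16, against -1.53 and -1.39 over the members. Nothing particular to them was tested.

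A fixed list held genes that act in the transcription, processing or decay of histone mRNA, and 16 of them were tested. Of these, 13 had a negative log2 fold change with OA and 14 with TN. Over all genes tested, 7523 of 14681 did with OA and 7487 of 14432 with TN. SLBP was at 159, 121 and 145 CPM in OActrl and at 70.6, 25.6 and 61.9 CPM in OA (log2 fold change -1.42 ± 0.38 SE, adjusted p = 0.0706), and at 154, 154 and 169.8 and 41.2, 62.8 and 74.2 CPM in the TN comparison (log2 fold change -1.42 ± 0.26 SE, adjusted p = 0.0211). With OA 0 of the 16 passed in edgeR (7 at an unadjusted p under 0.05, and 2 by DESeq2), and with TN 2 fell, SLBP and CPSF3, the endonuclease that cuts the pre-mRNA, against 9 in the blocked fit. NPAT, the cyclin E target that activates histone transcription, was at 45.1, 10.4 and 25.3 CPM in OActrl and at 16.4, 5.99 and 10.1 CPM in OA. CASP8AP2, which acts at the same loci, was at 27.4, 6.48 and 10.4 and 10.3, 2.49 and 3.32 CPM. Neither passed, at log2 fold changes of -1.31 and -1.44, which ran with 1 library left out from -1.76 (without OA replicate 1) to -0.66 (without OActrl replicate 1) and, for the same libraries, from -2.35 to -0.57. RNU7-1, the U7 RNA of the cleavage complex, was listed at 0 in all libraries.

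Of 20 histone chaperones, 5 fell with OA and 6 with TN (12 in the blocked fit) and none rose. CHAF1A, a subunit of the factor that places H3 and H4 on new DNA, went from 75.04, 84.2 and 76.02 to 17.99, 13.4 and 25.5 CPM with OA (log2 fold change -2.05 ± 0.30 SE, adjusted p = 0.0191) and was at a log2 fold change of -2.48 with TN, where it passed too. ASF1B was at -1.85 with OA and -2.27 with TN, and both passed.

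Of 32 S-phase genes from a fixed list, 24 fell with OA and 25 with TN (32 in the blocked fit), and their medians were -1.66 and -2.05. PCNA, the sliding clamp of the DNA polymerases, was at 351, 275 and 301 CPM in OActrl and at 105, 35.8 and 89.9 CPM in OA (log2 fold change -2.003 ± 0.39 SE, adjusted p = 0.0355). CCNE2, a cyclin of the start of S phase, was at 58.05, 18.1 and 43.1 and 7.01, 2.59 and 4.98 CPM (log2 fold change -3.02 ± 0.53 SE, adjusted p = 0.0271), and E2F1, a transcription factor of S-phase genes, at -1.19, not called. In TN replicate 1 the S-phase genes were at a median of -1.45 from TNctrl, while the histone genes were at -0.34. In TN replicates 2 and 3 the S-phase genes were at -2.32 and -2.25 and the histone genes at -2.18 and -2.02. In OA replicates 1, 2 and 3 the S-phase genes were at -1.81, -2.003 and -1.28 and the histone genes at -2.11, -1.10 and -1.11. The part of S-phase genes in the histone result was not tested.

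Of 10 genes from a fixed list for cell-cycle arrest, 5 rose with OA: BTG1, CDKN2B, GADD45A, GADD45B and CDKN1A. The list also holds CCND1, the gene of cyclin D1, which is not an arrest gene. CDKN1A, the p21 inhibitor of cyclin-dependent kinases, was at 104, 136 and 128 CPM in OActrl and at 284, 869 and 367 CPM in OA (log2 fold change 2.05 ± 0.42 SE, adjusted p = 0.0396). With TN, BTG1 and CDKN2B rose and CDKN2C fell, and in the blocked fit 5 rose and 1 fell. Of 11 replication-independent histone variants, H2AZ1 fell with both agents (-1.05 and -1.13) and CENPA with TN (-1.31), and the rest did not pass. In the blocked TN fit 6 of the 11 fell. This list also holds H1-10, which is counted among the 50 members.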

How the data were processed

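RNA sequencing of 12 libraries was analysed, 3 per group, with groups taken from the labels. The authors aligned reads to hg38 with STAR, counted them per gene and deposited raw counts, without normalization. The strand column counted is not given in the sources used here. The deposited tables of fold changes, standard errors, statistics, p-values, adjusted p-values and mean levels from the authors' DESeq2 were not used.

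Members were found by symbol, with a mean count of at least 10. One gene that matches this rule is not reported here and was left out of the members and lists, not of the fits. Members and gene lists were chosen with earlier results of these data known. Each treated group was compared with its own control in edgeR 4.0.16 (R 4.3.3) with TMM scaling, filterByExpr and the quasi-likelihood test, with p-values adjusted over all genes tested (Benjamini-Hochberg, threshold 0.05). CPM used the TMM effective library size. The fit was also run on simulated data, and no result is drawn from that here. DESeq2 1.42.0, other scalings and filters, GC offsets, a replicate block and leaving out each library were alternatives.

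Genes named were those called (at most 12 per comparison), the 3 with the highest level per type, the H1 genes, the 3 largest rises and falls, and 6 fixed genes and up to 3 per other list. Named in addition were GADD45B and CDKN1A, and genes given for their place, sequence or low counts. Sequences were read from hg38 with GENCODE 44 and from RefSeq. Of the 50, 14 share over 50% of their 50-base stretches with other transcripts and 9 overlap another gene model. Counts of such genes are uncertain. Intervals cover counting error only.

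Pairing was checked by the correlation of deviations from group means. It was 0.64, 0.41 and 0.43 for the same-numbered TN and TNctrl libraries, and all pairs were over 0.1, so the numbers were taken as pairs. TNctrl replicate 3 correlated about as much with TN replicate 2 (0.44), and TNctrl replicate 2 with TN replicate 3 (0.38), so the data set replicate 1 apart but do not tell replicates 2 and 3 from each other.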

Additional observations from a re-analysis of the deposited data

How the results depend on the processing

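The OA and TN medians over members and over each type stayed negative under all alternatives run. With OA, 20 members were called, and the other counts beyond 1.5 times this were 35 with DESeq2, 32 with library totals, 34 with no filter, 37 with a GC offset, and 43 both with the replicate block and with the block and a GC offset. The share of all genes called in either direction was 4.48% in OA as reported, and 10.4%, 5.09%, 5.52%, 20.2%, 26.7% and 29.9% in these fits in turn. Leave-one-out fits gave 0 to 29 members, where 0.0200% to 7.57% of all genes were called, and the median of the H2A genes ran from -2.28 to -1.31. With TN, 1 member was called, against 25 with DESeq2, 10 with library totals, 31 with no filter, 28 with a GC offset, 37 with the replicate block, 42 with the block and a GC offset, 13 with 1 fit of all 12 libraries, and 0 to 42 in leave-one-out fits, where 1.01% to 15.8% of all genes were called. Of all genes, 6.99% were called as reported, and 10.6%, 9.73%, 5.85%, 23.3%, 27.13%, 39.2% and 8.73% in the first 7 of these in turn. With only the TN libraries numbered 2 and 3, 43 were called, and the median was -2.56 in H2A and -2.49 in H2B. In leave-one-out fits the TN median ran from -2.31 to -1.02 over members, from -1.76 to -0.75 in H1, from -2.49 to -1.26 in H2A, from -2.75 to -1.09 in H2B, from -2.53 to -1.36 in H3 and from -1.93 to -0.79 in H4. H1-10 with TN turned from -0.14 to 0.056 without TNctrl replicate 1 and to 0.034 without TN replicate 2, in a leave-one-out range of -0.396 to 0.056. The log2 ratio of the summed TN level ran in leave-one-out values, added after the data were seen, from -2.24 to -0.96 over the stem-loop genes, from -1.93 to -0.90 in H1, from -2.27 to -0.87 in H2A, from -2.51 to -1.16 in H2B, from -2.58 to -1.15 in H3 and from -1.87 to -0.67 in H4. The cause of these shifts was not tested.

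Library totals moved the median of all genes to -0.23 with OA and -0.18 with TN. For OA and OActrl the same-numbered deviations correlated at 0.62, 0.54 and 0.09, and OActrl replicate 3 correlated more with OA replicate 1 (0.15), so the numbers were not taken as pairs, and the replicate block raised the OA calls from 20 to 43. The difference between OA and TN called 0 members in all alternatives run. Depth limits the 10 low genes whose OA mean count is under 10.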
